A study of Homo sapiens with 12 samples.

Results

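AsPC1 and BxPC3 are established human pancreatic ductal adenocarcinoma cell lines, AsPC1 grown from ascites and BxPC3 from a primary tumour. Their parental cultures were compared with each other here, untreated, on 3 arrays each, which are 6 of the 12 arrays of the series. The other 6 arrays hold AsPC1-R and BxPC3-R, 1 derivative of each line made resistant to cisplatin, a platinum drug that crosslinks DNA. These were kept in 1.67 µM (AsPC1-R) and 0.60 µM (BxPC3-R) cisplatin with the last passage drug-free. They served as a second pair of the same lines. Parental means and differences do not use their arrays, but all 12 arrays set the spread behind every SE and p-value. All 4 groups were grown in RPMI medium with fetal bovine serum and an antibiotic-antimycotic, and the parental cultures were harvested before confluence. Levels of 18417 genes, each read from 1 probe set, were compared on the log2 scale, so a difference of 1 is 2-fold, and every difference below is AsPC1 minus BxPC3 unless another pair is named. Nothing in the labels says whether the 3 arrays of a line hold separate cultures, and p-values then describe the spread among these samples alone, which may be technical. Each line stands for 1 tumour, so a difference between them is a difference between 2 lines and not between classes of tumour.

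Pancreatic ductal adenocarcinomas are often sorted into a classical class, with genes of gut and glandular epithelium, and a basal-like class, with keratins and other genes of squamous epithelium. Loss of CDKN2A and of SMAD4, the shared mediator of TGF-beta signals, is common in this cancer, and BxPC3 is known to lack both genes. NF-kB drives cytokines and acute-phase genes, and interferons drive antiviral genes through the factor complex ISGF3. Tumour cell lines can keep either program active without added stimulus.

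The arrays of a line resembled each other closely. Over all genes, Pearson's r was 0.991 to 0.994 among AsPC1 arrays, 0.994 to 0.996 among BxPC3 arrays and 0.909 to 0.914 between the lines, and array medians lay between 6.48 and 6.65. A single array stood apart. Of the 54 genes at least 16-fold higher in AsPC1, 49 had their highest BxPC3 reading on replicate 2, with a median excess of 0.83 above the average of replicates 1 and 3. The same was seen for 49 of the 50 genes with the largest excess of AsPC1-R over BxPC3-R, a choice that uses no parental array, with a median of 0.87. For the 50 genes with the largest excess of BxPC3-R the count was 17, with a median of 0.00. Whether AsPC1 RNA reached that sample was not tested, and gene tests, list counts, windows, runs, promoter shares of the 2-fold genes and the comparison with the derivatives across genes were also computed without it. Background was not measured, so the size of a difference is uncertain where 1 line reads near the level of a gene it lacks, such as SMAD4 at 4.70 in BxPC3.

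Differences were widespread. By limma with Benjamini-Hochberg adjustment, 9316 of 18417 genes (50.6%) passed an adjusted p under 0.05, 5098 (27.7%) higher in AsPC1 and 4218 (22.9%) higher in BxPC3. The 3 arrays of one line lay wholly above the 3 of the other for 54.3% of genes. At least 2-fold differences favoured BxPC3, with 746 genes (4.05%) higher in AsPC1 and 1294 (7.03%) higher in BxPC3, 11.1% of genes in all. Those shares, 4.05% and 7.03%, are the background of every 2-fold count of list members below. For counts of members called at any size, the background is 27.7% and 22.9%. At 16-fold or more the counts were 54 (0.293%) and 145 (0.787%), or 65 and 146 without BxPC3 replicate 2. Without BxPC3 replicate 2 the 2-fold counts were 779 (4.23%) and 1236 (6.71%), and 728 and 1227 of the same genes were among them. The median difference over all genes was 0.11.

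**Figure D1:**
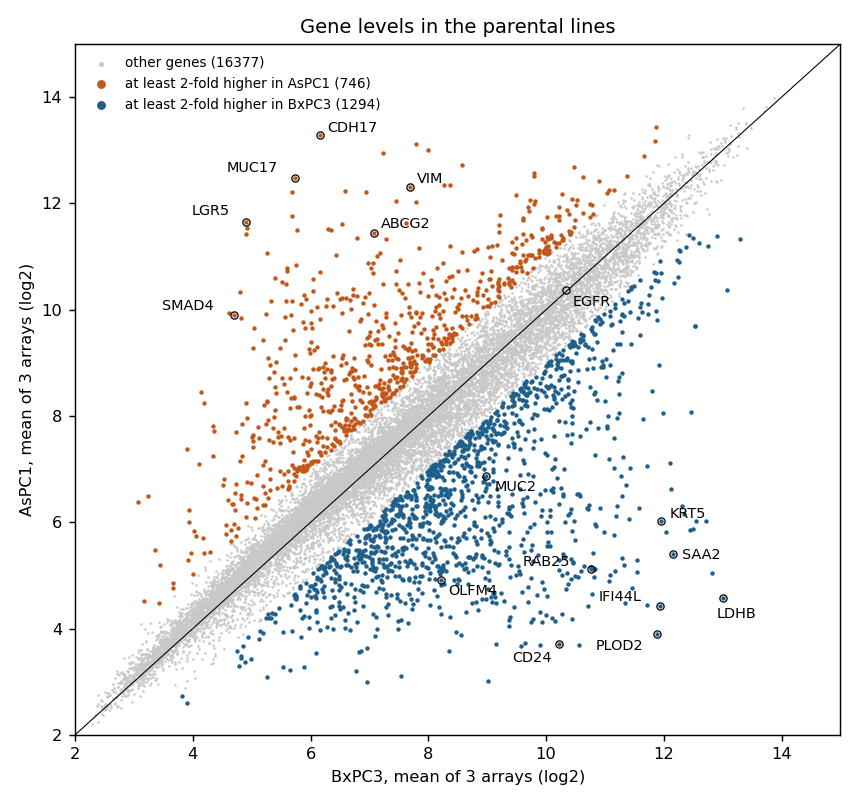
Mean log2 level of each of the 18417 genes in BxPC3 (x axis) against AsPC1 (y axis), 3 arrays per line, with genes called and at least 2-fold higher in AsPC1 (746) or BxPC3 (1294) in colour and the other 16377 in grey. LDHB, PLOD2 and IFI44L lie among those farthest toward BxPC3, and CDH17, LGR5 and MUC17 among those farthest toward AsPC1.

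The largest difference in either direction was that of LDHB, the B subunit of lactate dehydrogenase. It read 4.55, 4.89 and 4.29 on the AsPC1 arrays and 13.01, 12.96 and 13.07 on the BxPC3 arrays. The AsPC1 readings were as low as those of genes a line lacks, while the BxPC3 readings were far above the table median. The difference was -8.44 (SE 0.14, adjusted p = 1.82e-14), or 347-fold, and it was -9.18 between the derivatives. PLOD2, a collagen lysyl hydroxylase, followed at -7.99 (SE 0.15). LCP1, the actin bundler L-plastin of white blood cells that many carcinoma lines also make, stood at -7.76 (SE 0.19), and FYB1, an adaptor of T cell and platelet signalling, at -7.28 (SE 0.18). LAPTM5, a lysosomal membrane protein known from blood cells, differed by -6.59 (SE 0.10), and PTGS2, the inducible cyclooxygenase, by -6.87 (SE 0.08). PTPRC, the antigen common to leukocytes, read 3.27 ± 0.29 in AsPC1 and 3.24 ± 0.08 in BxPC3 (mean ± SD, n = 3), far under the table median of 6.55 in both. Of 12 measured leukocyte markers, 4 were called higher in AsPC1 and 1 in BxPC3, against 27.7% and 22.9% of all genes. These were LYZ at 6.52, CD68 at 0.87, CSF1R at 0.48 and MS4A1 at 0.45, and CD3E at -0.60, so LYZ alone was at least 2-fold apart. The mean level of the list ran from 6.26 to 6.47 on AsPC1 arrays and from 5.46 to 5.79 on BxPC3 arrays, and its part in these results was not tested. PTPRC, CD68, CSF1R, MS4A1 and CD3E were chosen for mention after their values were seen.

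Genes of intestinal epithelium were higher in AsPC1. CDH17, the liver-intestine cadherin, read 13.33, 13.20 and 13.31 on the AsPC1 arrays and 4.99, 9.0 and 4.47 on the BxPC3 arrays. The lines did not overlap, and BxPC3 replicate 2 was far above its fellows. The difference was 7.12 with that array and 8.55 without it. LGR5, a receptor for R-spondins that marks intestinal stem cells, read 11.85, 11.65 and 11.43 in AsPC1 against 4.25, 6.04 and 4.40 in BxPC3. Again all AsPC1 arrays were high, and the second BxPC3 array was the least low. Its difference was 6.75 (SE 0.33, adjusted p = 5.72e-10), 7.32 without that array and 6.31 between the derivatives. Of 32 measured genes of the intestinal list, 25 were called higher in AsPC1 and 2 in BxPC3, against 27.7% and 22.9% of all genes. At least 2-fold were 18 and 2, against 4.05% and 7.03%, and the median difference was 1.63 against 0.11 over all genes.

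The intestinal genes covered several jobs of the enterocyte surface. DPP4, a brush border peptidase, differed by 5.33 (SE 0.28), MYO1A, the brush border myosin, by 5.19 (SE 0.24), and LGALS4, a galectin of gut epithelium, by 5.27 (SE 0.31). VIL1, the microvillus protein villin, chosen for mention after its values were seen, differed by 4.54 (SE 0.16). The exceptions were OLFM4, a secreted protein of crypt cells, at -3.31 (SE 0.16), and MTTP, which loads lipoproteins with lipid, at -1.12 (SE 0.14). Without BxPC3 replicate 2 only OLFM4 of the list stayed at least 2-fold higher in BxPC3, with MTTP at -0.97. CDX2, a factor of intestinal identity, differed by only 0.88 (SE 0.10), from 8.18 to 7.30. Between the derivatives the list counted 19 genes higher in AsPC1-R and 0 in BxPC3-R at 2-fold, against 5.14% and 5.29% of all genes, with a median of 1.68. Outside the list, ANXA13, an annexin of intestine and kidney, was higher in AsPC1 by 6.52 (SE 0.27), as was LYZ, lysozyme, which Paneth cells and leukocytes make, at 6.52 (SE 0.56) and at 7.53 without BxPC3 replicate 2.

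**Figure D2:**
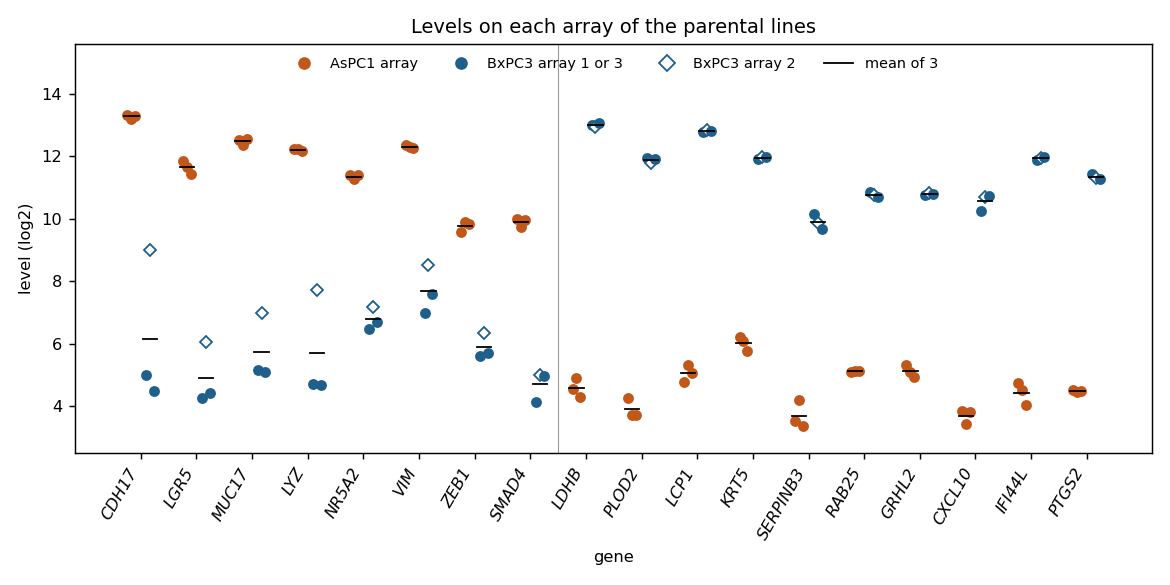
Log2 level on each parental array for 18 genes, with AsPC1 and BxPC3 in separate colours, bars at the mean of 3 arrays and BxPC3 replicate 2 drawn as open diamonds. For CDH17, LGR5 and MUC17 the open diamond lies well above the other BxPC3 arrays, while for KRT5, RAB25, IFI44L and LDHB the BxPC3 arrays lie together.

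Membrane mucins split between the lines. MUC17, a large mucin of the enterocyte surface, read 12.53, 12.36 and 12.56 in AsPC1 and 5.16, 6.98 and 5.09 in BxPC3. The difference was 6.74 (SE 0.36), or 7.36 without BxPC3 replicate 2. MUC13, another mucin of gut epithelium, read 12.39, 12.32 and 12.33 against 8.11, 8.80 and 7.88. Its difference was 4.09 (SE 0.17, adjusted p = 9.49e-11), and BxPC3 still read above the table median. MUC12 at 2.67 (SE 0.26) and MUC3A at 1.48 (SE 0.14), neighbours of MUC17 on chromosome 7, were also higher in AsPC1. Higher in BxPC3 were MUC2, the gel-forming mucin of goblet cells, at -2.11 (SE 0.12), MUC16, which carries the CA125 antigen, at -1.37 (SE 0.12), and MUC4 at -1.27 (SE 0.09). Of 14 mucins, 4 were at least 2-fold higher in AsPC1 and 3 in BxPC3.

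The promoter of MUC13 is shown because its window holds CAAAGTCCA, a string bound by the hepatocyte nuclear factors of the HNF4 family, of which HNF4G was higher in AsPC1. The match, read on the opposite strand, is in capitals. The sequence is the stretch of 250 bases before the RefSeq start site in GRCh38.p14, chr3:124934752-124935001, minus strand, with the match beginning 51 bases before the start.
MUC13: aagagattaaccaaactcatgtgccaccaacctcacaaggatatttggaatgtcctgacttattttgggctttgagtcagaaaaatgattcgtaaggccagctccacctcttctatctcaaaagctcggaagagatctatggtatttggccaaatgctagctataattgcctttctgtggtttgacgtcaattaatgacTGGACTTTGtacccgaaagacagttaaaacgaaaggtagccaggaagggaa
The search covered both strands of windows of 300 bases (250 before and 50 after the start) for 14237 genes. The string was found for 5 of 580 genes at least 2-fold higher in AsPC1 (0.862%), for 0 of 1018 higher in BxPC3 and for 42 of all 14237 (0.295%). The counts were 5 of 602 and 0 of 971 without BxPC3 replicate 2. None of the 23 genes of the intestinal list with a window held it.

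Enzymes that build mucin sugars differed in both directions. Of 31 such glycosyltransferases, 3 were at least 2-fold higher in AsPC1 and 9 in BxPC3, and the median difference was -0.08. GALNT3, which starts O-glycans, read 4.25 in AsPC1 and 10.00 in BxPC3, a difference of -5.75 (SE 0.12). The sialyltransferase genes ST3GAL6 at -4.52 (SE 0.13) and ST6GALNAC2 at -4.03 (SE 0.12) were also higher in BxPC3. Those higher in AsPC1 were B3GALT5, which builds type 1 chains, at 3.42 (SE 0.17), GCNT3, which branches mucin cores, at 2.73 (SE 0.12), and C1GALT1, which makes core 1, at 1.60 (SE 0.11).

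Transcription factors of endoderm differed less than the genes above. Of 25 measured, 4 were at least 2-fold higher in AsPC1 and 2 in BxPC3, with a median of 0.31. NR5A2, a nuclear receptor of pancreas, liver and gut, read 11.39, 11.27 and 11.39 in AsPC1 and 6.46, 7.19 and 6.70 in BxPC3. No other factor of the list came near its difference of 4.57 (SE 0.14). HNF4G followed at 2.62 (SE 0.10), ELF3 at 1.85 (SE 0.10) and ONECUT2 at 1.43 (SE 0.14). SPDEF, a factor of goblet cells, was higher in BxPC3 at -1.47 (SE 0.17), and so was SOX2 of foregut and squamous cells at -1.34 (SE 0.25). GATA6, the factor most used to mark the classical class, read 8.56 in AsPC1 and 8.32 in BxPC3 and did not pass (adjusted p = 0.149). It passed in 2 of the alternative analyses, with array weights and without AsPC1 replicate 3. Of 27 HOX genes, which set position along the body axis, 7 were at least 2-fold higher in AsPC1 and 0 in BxPC3. They were led by HOXB2 at 2.23 (SE 0.21), HOXB3 at 2.10 (SE 0.12) and HOXC10 at 2.10 (SE 0.11). Without BxPC3 replicate 2 the HOX counts were 6 and 0. Only 16 of the 27 reached the table median in at least 1 line, and of the HOXA genes only HOXA2 was measured.

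Squamous genes ran the other way. KRT5, the keratin of basal cells, read 6.22, 6.08 and 5.76 in AsPC1 and 11.90, 11.96 and 11.98 in BxPC3. The 2 sets of readings were tight and far apart, and BxPC3 replicate 2 was like its fellows. The difference was -5.93 (SE 0.13, adjusted p = 1.47e-13), -5.92 without that array and -6.51 between the derivatives. Of 29 measured squamous and basal cell genes, 2 were called higher in AsPC1 and 23 in BxPC3, 1 and 17 of them at least 2-fold, with a median of -2.325. CSTA, a protease inhibitor of the cornified envelope, differed by -6.13 (SE 0.12), the calcium-binding S100A2 by -5.32 (SE 0.31) and the envelope precursor SPRR1B by -4.66 (SE 0.14). The serpin gene SERPINB3 differed by -6.20 (SE 0.21), though SERPINB3 and SERPINB4 are near-identical and probes may not tell them apart. The exceptions were DSC2, a desmosomal cadherin, which was higher in AsPC1 by 2.07 (SE 0.08), and the integrin subunit gene ITGB4 at 0.93, chosen for mention after its values were seen. KRT14, the usual partner of KRT5, was chosen for mention after its values were seen, since it read 7.98 and 8.51, a difference of only -0.52 (SE 0.13).

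Genes tied to the classical and basal-like subtypes shared members with the lists above. Of 22 classical genes, 9 were at least 2-fold higher in AsPC1 and 2 in BxPC3, with a median of 0.80, and CDH17, LGALS4 and MYO1A are on the intestinal list too. TSPAN8, a tetraspanin, differed by 5.01 (SE 0.40). The 2 classical genes higher in BxPC3 were ANXA10, an annexin of gastric epithelium, at -4.97 (SE 0.14), and the aspartic protease gene CTSE at -1.63 (SE 0.12). Of 19 basal-like genes, 0 were at least 2-fold higher in AsPC1 and 12 in BxPC3, with a median of -1.37. SCEL, a cornified envelope protein, differed by -5.51 (SE 0.12) and KRT7, a simple epithelial keratin counted on this list, by -4.13 (SE 0.11). Without BxPC3 replicate 2 both pairs of counts were the same.

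**Figure D3:**
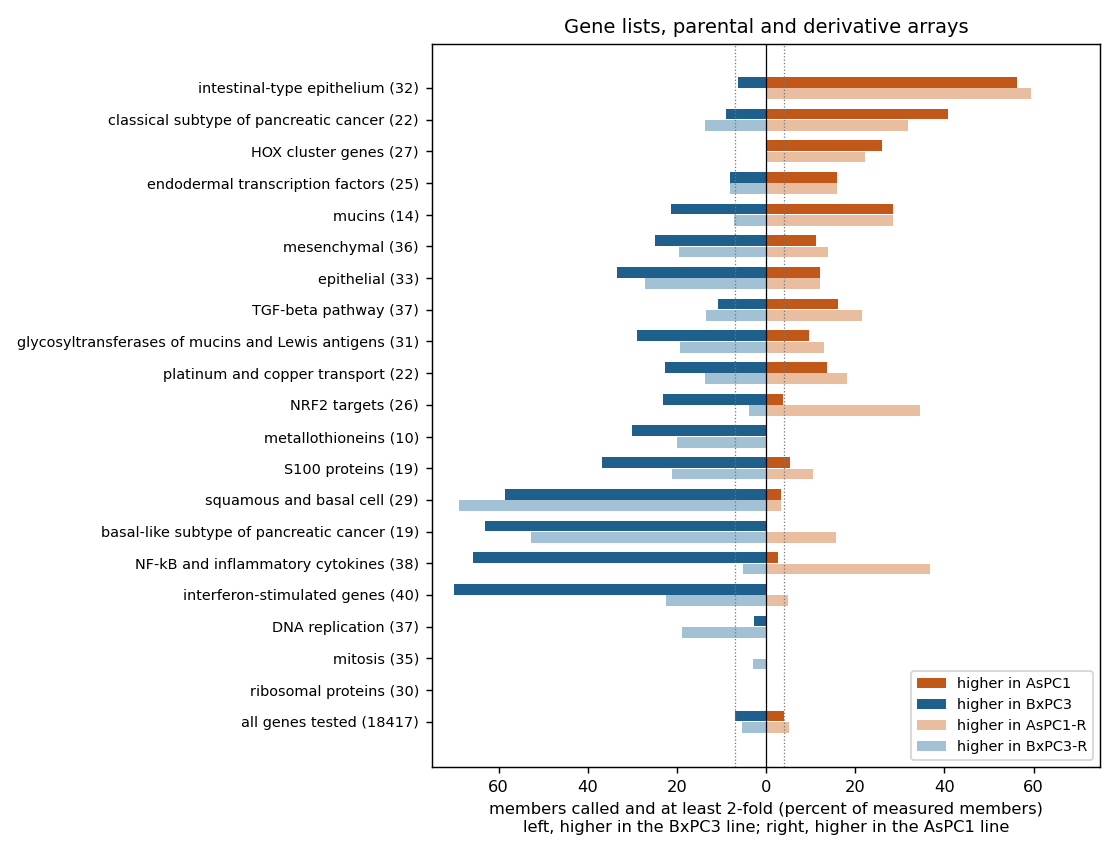
Percent of measured members of each gene list that were called and at least 2-fold higher in AsPC1 (to the right) or BxPC3 (to the left), dark for the parental lines and light for the derivatives. The dotted lines mark all genes (4.05% and 7.03% for the parental lines). The intestinal and classical lists extend toward AsPC1, and the squamous, basal-like, NF-kB and interferon lists toward BxPC3, with the NF-kB list reaching the AsPC1 side in the derivatives.

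Both lines were epithelial, with different sets of junction genes. EPCAM, the epithelial adhesion molecule, read 13.29 ± 0.09 in AsPC1 and 12.43 ± 0.07 in BxPC3, and KRT19, the ductal keratin, 11.48 and 10.70. CDH1, E-cadherin, read 10.51 and 12.18, a difference of -1.67 (SE 0.08). RAB25, a GTPase of epithelial membrane recycling, read 5.09, 5.11 and 5.13 in AsPC1 and 10.85, 10.76 and 10.71 in BxPC3. All AsPC1 arrays were low and nearly equal. The difference was -5.66 (SE 0.074, adjusted p = 3.29e-15). MAL2 of apical transport at -6.71 (SE 0.11), GRHL2, a factor that maintains epithelial junctions, at -5.67 (SE 0.12), and CDH3, P-cadherin, at -4.40 (SE 0.11) were likewise higher in BxPC3. KRT8 at 2.78 (SE 0.13) and KRT18 at 1.90 (SE 0.12), partner keratins of simple epithelium, were higher in AsPC1, as were the tight junction genes CLDN3 and CGN at 1.44 and 1.26. Of 33 epithelial genes, 4 were at least 2-fold higher in AsPC1 and 11 in BxPC3.

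Mesenchymal genes were divided as well. VIM, the intermediate filament vimentin, read 12.37, 12.30 and 12.26 in AsPC1 and 6.97, 8.52 and 7.58 in BxPC3. The lines did not overlap, and the highest BxPC3 reading was that of replicate 2. The difference was 4.62 (SE 0.26, adjusted p = 2.12e-09), 5.03 without that array and 2.56 between the derivatives. ZEB1, a repressor of epithelial genes, read 9.58, 9.91 and 9.82 against 5.60, 6.33 and 5.69. It differed by 3.89 (SE 0.16). S100A4 at 4.01 (SE 0.19) and TNC, the matrix protein tenascin C, at 3.81 (SE 0.13) were also higher in AsPC1. Of 36 measured members, 4 were at least 2-fold higher in AsPC1 and 9 in BxPC3. The latter were led by FN1, fibronectin, at -4.30 (SE 0.13), CDH11, a mesenchymal cadherin, at -4.27 (SE 0.22), and ITGA5, a fibronectin receptor subunit, at -3.08 (SE 0.12). LAMA4, a laminin chain, was higher in AsPC1 by 4.29 (SE 0.13).

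SMAD4 and its neighbours on chromosome 18 were low in BxPC3. SMAD4 read 10.01, 9.74 and 9.96 in AsPC1 and 4.14, 5.01 and 4.96 in BxPC3. The difference was 5.20 (SE 0.19), and replicate 2 was not apart from replicate 3. The genes beside it in order, ME2, ELAC1 and MEX3C, were also higher in AsPC1, by 5.81 (SE 0.26), 1.39 and 3.29 (SE 0.16). The next measured gene on either side, MRO and DCC, read under 5 in both lines, so they do not show how far the low readings extend, while MBD2 beyond DCC read 9.73 and 10.30. ME2, a mitochondrial malic enzyme, read 5.10, 6.12 and 4.56 in BxPC3, highest on replicate 2.

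At the CDKN2A site on chromosome 9, smaller differences ran the same way. MTAP, a methionine salvage enzyme often lost with CDKN2A, differed by 2.85 (SE 0.14), from 8.45 to 5.59, CDKN2A by 1.22 (SE 0.14) and CDKN2B by 0.82 (SE 0.15). The 2 inhibitor genes read only 7.44 and 7.34 in AsPC1, and 6.22 and 6.52 in BxPC3. Across both sites, 8 of 18 listed neighbours were at least 2-fold higher in AsPC1 and 0 in BxPC3. A similar pattern stood on chromosome 10, found after the values were seen. PSAP, the saposin precursor, differed by 4.56, ASCC1 by 5.03 and ANAPC16, a subunit of the anaphase-promoting complex, by 4.26. CHST3 and SPOCK2, which lie between PSAP and ASCC1, differed by 0.52 and 0.21. They read 7.07 and 6.09 in AsPC1 and 6.55 and 5.88 in BxPC3. Since even AsPC1 read near or under the table median of 6.55, they show little of whether the low readings extend across them. On BxPC3 arrays ASCC1 read 4.70, 5.44 and 4.30. On chromosome 11, USP47, a deubiquitinase, read 4.39, 5.75 and 4.25 in BxPC3 and 10.33 on average in AsPC1. Its neighbours GALNT18 and DKK3 differed by -0.47 and 0.42. They too read near or under the table median, at 5.79 and 7.10 in AsPC1 and 6.26 and 6.68 in BxPC3. MICAL2, which follows DKK3, was higher in AsPC1 by 2.83 (SE 0.11). Beside LDHB, GYS2 and KCNJ8 were dim in both lines and so show nothing. GOLT1B, CMAS and RECQL near it were expressed and slightly lower in AsPC1, at -0.43, -0.35 and -0.22, far from the -8.44 of LDHB. DNA was not measured at any of these sites.

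**Figure D4:**
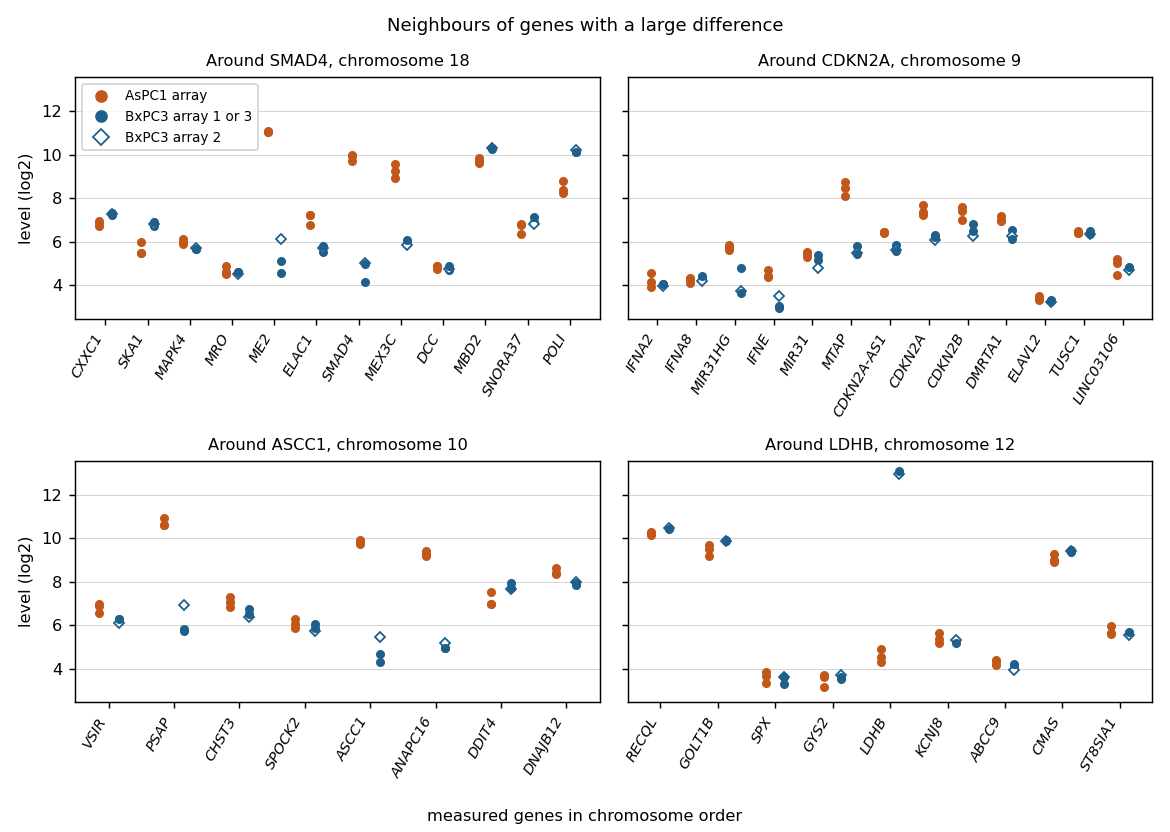
Log2 level on each parental array for genes in chromosome order around SMAD4, CDKN2A, ASCC1 and LDHB, 1 panel each, by line. ME2, ELAC1, SMAD4 and MEX3C are all lower in BxPC3, and LDHB differs by far more than the genes beside it.

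TGF-beta pathway genes differed in both directions. Of 37 measured, SMAD4 among them, 6 were at least 2-fold higher in AsPC1 and 4 in BxPC3, with a median of 0.045. Among ligands and inhibitors, TGFB2 read 8.96 in AsPC1 and 11.91 in BxPC3, a difference of -2.95 (SE 0.10), INHBA, an activin subunit, differed by -3.65 (SE 0.19), and BMP4 by 2.62 (SE 0.16). FST, follistatin, which binds activins, read 6.03 and 12.54, a difference of -6.51 (SE 0.16). BMPR1B, a BMP receptor, was higher in BxPC3 at -3.09 (SE 0.11). BAMBI, a decoy receptor, at 3.82 (SE 0.14) and ID2, a target of BMP signals, at 2.63 (SE 0.18) were higher in AsPC1. TGFB2 stood at 0.16 between the derivatives. The parental difference minus the derivative difference was -3.11 (adjusted p = 3.34e-09), a test that 25.4% of all genes passed.

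Runs of neighbouring genes that differed the same way were also listed. A gene counted as expressed if its mean in at least 1 parental line reached the table median of 6.55. Genes high in only 1 line thus entered and genes dim in both were skipped, which favours such runs. In chromosome order, 35 runs of at least 4 expressed genes were at least 2-fold apart in the same direction, 9 higher in AsPC1 and 26 in BxPC3. They held 172 of 12086 genes, with the 4 genes around SMAD4 as 1 run. Of all genes, 4.05% and 7.03% were at least 2-fold higher in AsPC1 and in BxPC3. There were 11 and 22 runs without BxPC3 replicate 2, holding 159 genes, 146 of them in runs of the full set. Several runs were gene families: 7 SPRR genes of the cornified envelope on chromosome 1, 4 IFIT genes on chromosome 10, IL1A, IL1B, IL36G and IL1RN on chromosome 2, and GIMAP8, GIMAP4, GIMAP6 and GIMAP2 on chromosome 7. JAK2, PLGRKT, CD274 and PDCD1LG2, side by side on chromosome 9, differed by -3.28 to -1.24, and CD274 and PDCD1LG2 encode the ligands of PD-1. The longest run, 8 genes on chromosome 12 from ATXN2 to ERP29, was higher in AsPC1 by 1.02 to 2.60, with ALDH2 at the top. Without that array it was cut to 4 genes, ATXN2 to ALDH2. Members of a family share sequence, and how far their probes read each other was not tested.

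Of the runs, 5 were of zinc finger genes on chromosome 19, all higher in BxPC3, and 4 were without BxPC3 replicate 2. Of 221 ZNF genes on that chromosome, a family chosen after the values were seen, 0 were at least 2-fold higher in AsPC1 and 72 (32.6%) in BxPC3, with a median of -0.56. Of 218 ZNF genes on other chromosomes the counts were 3 and 21, and of 1087 other genes on chromosome 19 they were 8 and 24. ZNF790 differed by -4.30 and ZNF486 by -4.0. In the derivatives 2 and 41 of the 221 were at least 2-fold apart, with a median of -0.32. Most ZNF genes of this kind encode repressors with a KRAB domain.

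Over windows of 50 neighbouring expressed genes, medians ran from -0.69 to 0.87, with quartiles at -0.14 and 0.18. Over windows of 50 genes with all genes kept, they ran only from -0.564 to 0.64. Among windows of expressed genes, the highest was on chromosome 12 from METTL25 to HSP90B1, but its median in the derivatives was -0.07. The next, on chromosome 2 from FAM110C to RHOB, had 0.76 and kept 0.70 in the derivatives. The lowest, on chromosome 15 from PATL2 to POLR2M, had -0.69 and kept -0.60, and holds MYO5C at -4.43 (SE 0.11), GATM at -4.41 (SE 0.11) and MYO5A at -3.94 (SE 0.14). On chromosome 3, HHLA2, an immune checkpoint ligand, was higher in AsPC1 by 5.33 (SE 0.18) inside a window with a median of -0.675, HHLA2 to MIX23. These lowest windows lay close together, and their order was not stable. Without BxPC3 replicate 2, PATL2 to POLR2M had -0.63 and the lowest was CES1 to CDH11 on chromosome 16, at -0.675 against -0.65 with all arrays. With windows of 25 genes the lowest was ZNF101 to POP4 on chromosome 19, at -1.54.

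Inflammatory genes were higher in BxPC3. Of 38 measured NF-kB targets and cytokines, 2 were called higher in AsPC1 and 28 in BxPC3, 1 and 25 of them at least 2-fold, with a median of -1.60. SAA2, an acute-phase protein, read 5.41 in AsPC1 and 12.16 in BxPC3, a difference of -6.75 (SE 0.17), and SAA1 differed by -5.54 (SE 0.25). The 2 genes are near-identical, so their separate values are uncertain. C3, the central complement protein, differed by -6.62 (SE 0.14), the alarmin IL1A by -4.98 (SE 0.09) and S100A8, a subunit of calprotectin, by -4.58 (SE 0.19). CXCL1, a neutrophil chemokine, read 8.38, 8.46 and 8.38 in AsPC1 and 11.11, 11.33 and 11.26 in BxPC3. Both sets were tight, and the difference was -2.83 (SE 0.11). The chemokine CXCL10, outside the list, differed by -6.87 (SE 0.20). IL18 was the only member at least 2-fold higher in AsPC1, at 1.31 (SE 0.13), and the other one called there was LIF at 0.84, chosen for mention after its values were seen.

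Interferon-stimulated genes were also higher in BxPC3. IFI44L read 4.73, 4.51 and 4.04 in AsPC1 and 11.87, 11.93 and 11.99 in BxPC3. No other listed gene had so wide a gap, at -7.51 (SE 0.15, adjusted p = 8.01e-14). Of 40 measured members, 2 were called higher in AsPC1 and 35 in BxPC3, 0 and 28 of them at least 2-fold, with a median of -1.86. SLFN5 differed by -6.00 (SE 0.12), MX2, an antiviral GTPase, by -5.22 (SE 0.09), and TRIM22, an antiviral ubiquitin ligase, by -5.05 (SE 0.14). IFI27 read 6.04, 6.41 and 6.31 against 10.57, 10.78 and 10.81. IFIT1, which binds viral RNA, read 8.97, 9.01 and 8.90 against 10.73, 11.30 and 11.21, so it was well above the table median in both lines. Its difference was -2.12 (SE 0.13). Without BxPC3 replicate 2 the count at 2-fold was 26. The 2 members higher in AsPC1 were OAS1 at 0.77 and IRF7 at 0.39, both chosen for mention after their values were seen.

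The promoters of IFI44L, IFI27, IFIT1 and CXCL1 are shown because their lists had the largest shares of members apart between the lines and because the known binding strings of the factors stand in them. Each is the stretch of 250 bases before the RefSeq start site in GRCh38.p14, all on the plus strand: IFI44L at chr1:78620198-78620447, IFI27 at chr14:94110486-94110735, IFIT1 at chr10:89392373-89392622 and CXCL1 at chr4:73869143-73869392. Capitals mark TTTCNNTTT on either strand, the core of an interferon response element, in the first 3, and GGGANTTTC on either strand, a kappaB site, in CXCL1.
IFI44L: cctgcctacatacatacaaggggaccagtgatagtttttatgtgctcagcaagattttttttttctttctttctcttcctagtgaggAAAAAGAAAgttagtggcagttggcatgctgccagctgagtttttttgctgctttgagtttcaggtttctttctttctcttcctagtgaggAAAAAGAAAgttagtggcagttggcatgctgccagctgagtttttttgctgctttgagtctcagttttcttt
IFI27: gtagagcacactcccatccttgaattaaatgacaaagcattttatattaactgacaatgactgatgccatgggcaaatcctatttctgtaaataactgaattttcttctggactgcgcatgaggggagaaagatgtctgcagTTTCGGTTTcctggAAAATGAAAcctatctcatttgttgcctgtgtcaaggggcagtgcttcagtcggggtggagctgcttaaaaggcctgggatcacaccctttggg
IFIT1: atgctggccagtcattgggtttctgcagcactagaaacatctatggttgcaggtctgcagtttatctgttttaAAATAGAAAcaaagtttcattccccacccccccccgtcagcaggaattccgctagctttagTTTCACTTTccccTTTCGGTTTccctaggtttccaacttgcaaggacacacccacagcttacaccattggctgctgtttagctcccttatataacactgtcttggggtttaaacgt
CXCL1: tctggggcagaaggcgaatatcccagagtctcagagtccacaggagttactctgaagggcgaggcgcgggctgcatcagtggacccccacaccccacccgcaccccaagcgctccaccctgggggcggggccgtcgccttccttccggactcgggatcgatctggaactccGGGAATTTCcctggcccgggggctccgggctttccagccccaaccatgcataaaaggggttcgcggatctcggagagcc
The matches begin 163 and 72 bases before the start in IFI44L, 108 and 94 in IFI27, 177, 116 and 103 in IFIT1 and 79 in CXCL1. The matches nearest the start in IFI27 and in IFIT1 thus lie closer together than those of IFI44L. The interferon string was found in the windows of 23 of 30 interferon-stimulated genes (76.7%) against 1174 of 14237 genes (8.25%), and the kappaB string in 11 of 29 NF-kB list genes (37.9%) against 178 (1.25%). The lists were drawn up from known targets, so these shares describe the lists. Of all 1018 genes at least 2-fold higher in BxPC3 with a window, 119 (11.7%) held the interferon string and 26 (2.55%) the kappaB string, and of 580 higher in AsPC1, 55 (9.48%) and 1 (0.172%). These shares were 11.9% and 2.37% of 971 genes, and 9.47% and 0.166% of 602, without BxPC3 replicate 2. List members were not taken out of these counts. With all arrays, 17 of the 119 were on the interferon list and 7 of the 26 on the NF-kB list. The 2 strings share letters, so 1 stretch could match both.

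Holding the string did not go with a larger difference inside either list. The 23 interferon-stimulated genes with it had a median difference of -1.905, with 17 at least 2-fold higher in BxPC3, and the 7 without it had -2.67, with 5. For the kappaB string the medians were -1.39 over 11 genes with it and -2.002 over 18 without it. Antigen presentation genes, many of them interferon-inducible, differed less. Of 15, 1 was at least 2-fold higher in AsPC1 and 3 in BxPC3, and B2M, the light chain of class I molecules, differed by -1.20 (SE 0.12). Without BxPC3 replicate 2 TAP1 and PSMB9 fell short of 2-fold, at -0.94 and -0.99, and the counts were 1 and 1. HLA-DMA, of class II loading, was higher in AsPC1 by 1.28 (SE 0.17).

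Among receptors of the ERBB family, EGFR did not pass the test and ERBB3 did. EGFR read 10.49, 10.36 and 10.28 in AsPC1 and 10.27, 10.35 and 10.37 in BxPC3. The arrays overlapped, and the difference of 0.05 (SE 0.10) had an adjusted p of 0.693. ERBB3 was higher in AsPC1 by 1.99 (SE 0.09), while its ligand NRG1 was higher in BxPC3, at -5.96 (SE 0.18), as were the EGFR ligands HBEGF at -2.21 (SE 0.09) and BTC at -1.18 (SE 0.14). Of 25 genes on the list for MAPK output, 14 were called higher in AsPC1 and 6 in BxPC3, against 27.7% and 22.9% of all genes. Only 3 and 2 were at least 2-fold, and the median was 0.35. The list also holds genes of Ras signalling that do not report output, such as HRAS, NF1 and RASGRP3. ETV1 at 2.41 (SE 0.12), SPRY4 at 1.65 (SE 0.12) and ETV5 at 1.07 (SE 0.10) were higher in AsPC1, and DUSP5 at -1.67 (SE 0.18) and RASGRP3 at -1.43 (SE 0.12) in BxPC3.

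Drug efflux and uptake genes differed in both directions. ABCG2, a multidrug exporter, read 11.45, 11.44 and 11.44 in AsPC1 and 6.72, 7.52 and 6.99 in BxPC3. It differed by 4.37 (SE 0.15). ABCC2, which exports platinum conjugates, differed by 3.69 (SE 0.14). ABCC4 at -3.40 (SE 0.10) and ABCC5 at -1.60 (SE 0.10), other exporters, were higher in BxPC3. LRRC8C at -3.93 (SE 0.11) and LRRC8A at -1.37 (SE 0.11), subunits of the volume-regulated anion channel, which can admit cisplatin, were also higher there. Of 22 genes of platinum and copper transport, 3 were at least 2-fold higher in AsPC1 and 5 in BxPC3, 4 of the latter without BxPC3 replicate 2. Of 22 genes that handle gemcitabine or fluoropyrimidines, 1 and 2 were (2 and 2 without that array), with SAMHD1, which degrades deoxynucleotides, at -2.82 (SE 0.08) and the nucleoside importer SLC28A3 at -1.48 (SE 0.12). These shares are near those of all genes and so are no result about that list.

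Genes of detoxification also went both ways. ALDH1A1, a retinal dehydrogenase, differed by 4.05 (SE 0.29) and by 4.53 without BxPC3 replicate 2, and ALDH2 by 2.60 (SE 0.13). ALDH3A1 at -2.29 (SE 0.11) and GSTM3 at -2.80 (SE 0.12) were higher in BxPC3. Of 26 NRF2 targets, 1 was at least 2-fold higher in AsPC1 and 6 in BxPC3, among them AKR1B10, an aldo-keto reductase, at -4.34 (SE 0.17), and GCLM, which limits glutathione synthesis, at -1.96 (SE 0.09). Of 10 metallothioneins, which bind heavy metals, 8 were called higher in BxPC3 and 0 in AsPC1, 3 of them at least 2-fold, with MT2A at -2.08 (SE 0.08). Metallothionein copies are alike in sequence, so their separate values are uncertain.

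Mitosis and ribosomal protein genes differed little. Of 35 mitosis genes and of 30 ribosomal protein genes, 0 were at least 2-fold apart in either direction, with medians of 0.21 and 0.07. Of 37 DNA replication genes, 21 were called higher in BxPC3 and 6 in AsPC1, against 22.9% and 27.7% of all genes. The differences were small, with 1 at 2-fold, GINS3 at -1.36 (SE 0.11), and a median of -0.32, but their median size of 0.43 was above the 0.285 of all genes. Of 12 ductal markers, 10 read above the table median in at least 1 line, against 12100 of all 18417 genes. The counts were 3 of 8 acinar and endocrine, 3 of 10 endothelial, 3 of 12 leukocyte and 6 of 11 fibroblast and stellate cell markers. None of the acinar and endocrine markers was at least 2-fold apart. Of 10 endothelial markers, 3 were higher in BxPC3, CDH5 at -3.16 (SE 0.15), TEK at -2.05 (SE 0.12) and PECAM1 at -1.59 (SE 0.13), while the mean level of the list ran from 5.30 to 5.52 on AsPC1 arrays and from 5.97 to 6.02 on BxPC3 arrays. Of 11 fibroblast markers, LUM, lumican, was higher in AsPC1 by 6.63 (SE 0.22), and PDPN and PDGFRA were higher in BxPC3. Their list means ran from 6.37 to 6.56 and from 5.94 to 6.24. Whether other cells had a part in these values was not tested.

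The derivatives gave a second pair of the same lines on separate arrays, though both pairs were tested with 1 shared estimate of the spread. There 947 of all genes (5.14%) were called and at least 2-fold higher in AsPC1-R and 975 (5.29%) in BxPC3-R. Of the 746 genes at least 2-fold higher in AsPC1, 680 (91.2%) were called the same way between the derivatives, 498 (66.8%) of them at 2-fold, and 8 were called the opposite way. Of the 1294 higher in BxPC3, 1018 (78.7%) were called the same way, 677 (52.3%) at 2-fold, and 102 the opposite way. The difference itself changed between the 2 pairs, by at least 2-fold and at an adjusted p under 0.05, for 1157 genes (6.28%). Across genes, which are not independent replicates, the 2 sets of differences had r = 0.769 and rho = 0.59, or 0.774 and 0.59 without BxPC3 replicate 2.

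The lists did not all keep their direction. The squamous list had a median of -1.68 between the derivatives, with 20 members at least 2-fold higher in BxPC3-R, and the intestinal list was noted above. The NF-kB list had 14 members at least 2-fold higher in AsPC1-R and 2 in BxPC3-R, with a median of 0.56, where the parental counts were 1 and 25. CXCL1 differed by 1.45 between the derivatives, against -2.83 between the parental lines. The interferon list had 2 and 9 such members and a median of -0.09. OAS1 and IFI35 were the members higher in AsPC1-R, and IL1RN and S100A8 the NF-kB list members higher in BxPC3-R, OAS1, IFI35 and IL1RN being chosen for mention after their values were seen. IFI44L kept a difference of -5.00, while IFI27 stood at -0.43 and IFIT1 at -0.07 (adjusted p = 0.707). The NRF2 list had 9 and 1, the latter GCLM at -1.05, with AKR1B10 at 0.25 (adjusted p = 0.286). The antigen presentation list had 5 and 0, with a median of 0.78, where the parental median was -0.40. Each derivative is 1 line kept in drug, so the drug and the particular derivative cannot be told apart.

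**Figure D5:**
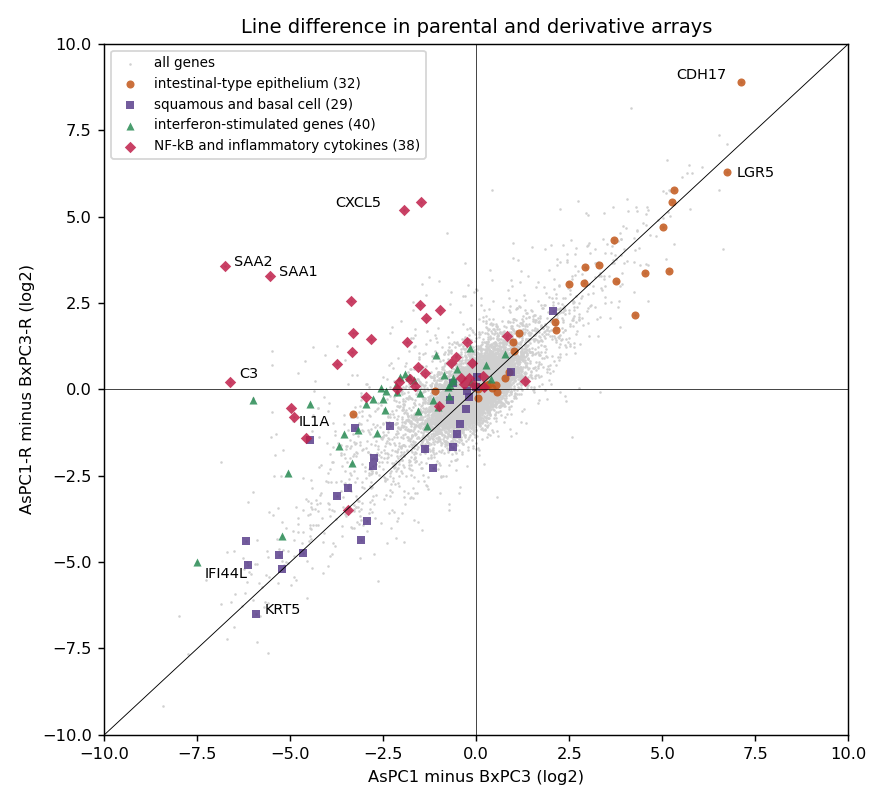
Difference between the parental lines (x axis, AsPC1 minus BxPC3, log2) against the difference between the derivatives (y axis, AsPC1-R minus BxPC3-R, log2) for 18417 genes, with 4 lists coloured. Intestinal and squamous genes lie near the diagonal, while many NF-kB and interferon genes lie to the left with derivative differences near or above 0.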

How the data were processed

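Total RNA of 12 samples (4 groups of 3) was extracted with the RNeasy Micro kit, amplified, labelled with biotin and hybridized by the authors, per the labels' protocols. The deposited values are log2 levels per probe set, made with RMA in Affymetrix Expression Console per the submitters' processing notes. No version, annotation release or build is given in those notes. RMA quantile-normalizes arrays, so the values hold no depth, and precision is limited by how many arrays each group has.

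Of 33297 probe sets, 19460 had 1 gene symbol, 1754 several and 12083 none in the platform table. For 769 genes with several probe sets the one with the highest mean over 12 arrays was used, giving 18417 genes, of which 18389 were found in RefSeq for chromosome and order. All were tested with limma 3.58.1 (lmFit, eBayes) in R 4.3.3 on all 12 arrays with 1 mean per group (8 residual and 5.47 prior degrees of freedom), two-sided, with Benjamini-Hochberg adjustment over 18417 genes. A gene was called at an adjusted p under 0.05, and a value after SE is limma's standard error. The comparisons were AsPC1 minus BxPC3, AsPC1-R minus BxPC3-R (on separate arrays), and the first minus the second. Lists were described by counts and medians, without a test.

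The groups, lists, tests and named genes were chosen with earlier results of these data known. The rule named the 15 genes per direction with the largest parental difference that were called with and without BxPC3 replicate 2 and did not overlap. It added the 4 members per list and direction with the largest called 2-fold difference, 17 genes of known standing in this cancer where measured, the 8 per direction with the largest difference between the pairs, and up to 4 genes in each of the 3 highest and 3 lowest windows. The text names some of them, neighbours of SMAD4, CDKN2A, ASCC1, USP47 and LDHB, members of runs, and others that it marks. IFI27, IFIT1 and CXCL1, which the rule did not name, were added for their promoters with their values known. They are not among the largest differences of their lists. The interferon and kappaB strings were each shortened by their last letter after the longer ones had been searched, which finds more matches over all genes and in each list named for the string. The fit was tested on simulated data. Alternatives were a replicate block, only the groups compared, dim genes left out, a repeated quantile normalization, centred arrays, eBayes with trend and robust, array weights, the mean over probe sets, a test against 1.5-fold, an adjusted p under 0.01, windows of 25 genes or of all genes, and each array left out.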

Additional observations from a re-analysis of the deposited data

Results flagged for a closer look

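For 1157 genes (6.28% of those tested) the difference between the parental lines differed from that between the derivatives at an adjusted p under 0.05 and by at least 2-fold, 325 above 0 and 832 below, by limma's test of the difference of differences with Benjamini-Hochberg adjustment. Values below are the parental difference, AsPC1 minus BxPC3, minus the derivative difference, AsPC1-R minus BxPC3-R, on the log2 scale.

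Those farthest below 0 were mostly inflammatory genes that were higher in BxPC3 among parental arrays and higher in AsPC1-R among derivatives. SAA2 had -10.31 and SAA1 -8.83, which are near-identical genes whose separate values are uncertain. The chemokine genes CXCL5 and CCL20 had -7.12 and -6.93. C3 of complement had -6.85, the protease inhibitor gene PI3 -6.61, COXFA4L3 -6.21 and the oxidase gene DUOX2 -5.91.

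Farthest above 0 was SYTL5, of vesicle traffic, at 3.96, followed by the hyaluronan synthase gene HAS2 at 3.65. The lipid carrier gene FABP4 had 3.40, the cadherin gene CDH6 2.91, the regulator of G protein signalling RGS4 2.76, the prostaglandin-degrading HPGD 2.74, the urea transporter gene SLC14A1 2.73 and the factor gene EYA1 2.63. The parental and derivative groups share no arrays, and each derivative is 1 line.

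Among the 13837 probe sets without a single gene symbol, which the comparisons leave out, 534 (3.86%) were called and at least 2-fold apart between the parental lines, 263 higher in AsPC1 and 271 in BxPC3.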

How the results depend on the processing

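Leaving out 1 array at a time gave 4002 (without BxPC3 replicate 2) to 5671 (without AsPC1 replicate 3) genes called higher in AsPC1 and 3727 to 4228 higher in BxPC3. The total ran from 7729 to 9899, the counts at 2-fold from 731 to 779 and from 1236 to 1346, the derivative calls from 7138 to 8322, and the calls for the difference of differences from 3961 to 5296. Genes at 2-fold and called the same way between derivatives ran from 665 to 710 and from 982 to 1061. In a test against a 1.5-fold change 2311 genes were called, 870 higher in AsPC1 and 1441 in BxPC3, with 2278 between the derivatives and 933 for the difference of differences. At an adjusted p under 0.01, 3233 were called higher in AsPC1 and 2998 for the difference of differences. With only the groups compared in the fit, 7743 genes were called between the parental lines, and there is no value for the difference of differences. AsPC1 had 54.7% of calls, and 49.4% to 51.9% with other scalings, which took the median over all genes from 0.109 to 0.066 (centred arrays) or 0.069 (quantile normalization once more).

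No pairing by replicate number was seen among the parental arrays. Same-numbered parental arrays had correlations of deviations from -0.192 to 0.082, and 2 of 6 were closest to their own number. Over all 18 same-numbered pairs, derivatives included, the correlations ran from -0.239 to 0.34. With so few arrays per group, these values cannot decide whether same-numbered samples were handled together. The fit with the number as a block called 9184 genes (5023 and 4161), 746 and 1294 at 2-fold, 682 and 1016 of them the same way between derivatives, 7855 between derivatives and 4525 for the difference of differences.

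Over the named genes and alternatives, 4252 values kept direction and side of the threshold, 11 lost the call (for CDKN2B, CDX2, KRT19, HAS2 and RGS4), 2 gained it (GATA6) and 1 changed sign, EGFR at -0.008 without AsPC1 replicate 1 and up to 0.097 without AsPC1 replicate 3. RGS4 had an adjusted p of 0.0579 without BxPC3 replicate 2. The highest and lowest window medians, not always of the same place, were 0.928 (FAM110C to GRHL1) and -1.536 (ZNF101 to POP4) with windows of 25, 0.64 (ANAPC7 to FBXW8) and -0.564 (ZNF106 to SLC24A5) with all genes, and 0.917 (METTL25 to HSP90B1) and -0.675 (CES1 to CDH11) without BxPC3 replicate 2. The cause of these shifts was not tested. Medians of the S100, mesenchymal, endothelial, cancer-testis, ALDH and GST, platinum, ductal and integrin lists changed sign in at least 1 alternative, by most with dim genes left out: from 0.076 to -2.053 (endothelial), 0.218 to -1.45 (cancer-testis) and 0.024 to -1.014 (S100). With 3 arrays per group and no measured background, the sizes of differences of dim genes are uncertain.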
